A study of Mus musculus with 18 samples.

Results

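Regulatory T (Treg) cells from liver were compared with Treg cells from bone marrow in poly(A) RNA-seq of 3 libraries each, 6 of the 18 libraries of the series. The 6 libraries are all those labelled with these sites, and no measured value entered their selection. Both groups came from wild-type mice with no treatment, and the cells were freshly sorted as CD4+Foxp3+ cells, per the series' design text. Spleen, lymph node, lung and peripheral blood, with 3 libraries each, serve below only to place a value. Age, sorting gates and the number of animals behind a library are not given in the sources used here, and nothing there says that replicates came from separate animals or sorts, so p-values measure only the spread between these samples.

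Treg cells are CD4+ T cells that restrain immune responses, and their identity rests on the transcription factor Foxp3. They take up interleukin-2 through the receptor chain encoded by Il2ra, and the inhibitory receptor encoded by Ctla4 lets them remove costimulatory ligands from antigen-presenting cells. In tissues they often acquire an effector state with the chemokine receptor Ccr8, the growth factor amphiregulin (Areg) and interleukin-10. The liver is perfused by blood from the gut through sinusoids lined by specialised endothelium, whereas bone marrow is the site of blood cell formation, where Treg cells lie among granulocyte, monocyte, B cell and erythroid precursors.

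The deposited values were TPM (a level per transcript length that is scaled to the same total in every library), so levels of different genes can be compared and every value is a share of the library. A difference was tested with limma on log2(TPM + 1), and a gene passed at a Benjamini-Hochberg adjusted p under 0.05. The liver libraries were shallower. From the steps between low values, 1 read of a 1 kb transcript was worth 0.377 TPM in liver and 0.116 TPM in bone marrow, a depth ratio of 3.25. Genes above 0 TPM numbered 14314 to 14408 in liver and 19633 to 19797 in bone marrow. The replicates of liver also scattered more: for abundant genes (100 TPM or above) their coefficient of variation had a median of 10.53%, against 3.23% for bone marrow. In liver 27 genes, and in bone marrow 2, went from 0 in a library to 100 TPM or above in a replicate of it.

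The labels held for the T cell genes. Foxp3 was measured at 165, 148 and 134 TPM in liver replicates 1 to 3 and at 148, 150 and 144 TPM in bone marrow (log2 difference 0.01, SE 0.09, adjusted p 0.95). The groups overlapped for Foxp3. Under other scalings, filters and fits its log2 difference ran from -0.36 to 0.1, with a lowest adjusted p of 0.0284 (limma). Cd3e, a chain of the T cell receptor complex, had 592, 517 and 517 TPM in liver and 416, 435 and 441 TPM in bone marrow. Cd4 had 332, 378 and 315 TPM in liver and 276, 285 and 260 TPM in bone marrow. Both passed the test as higher in liver (0.33 and 0.32 on the log2 scale, adjusted p 0.018 and 0.037). Without each bone marrow library in turn, and for Cd4 also without liver replicate 1, they no longer passed (adjusted p 0.0653 to 0.0804 for Cd3e and 0.0548 to 0.14 for Cd4). Their direction turned when each library was scaled to T cell genes (log2 differences of -0.04 and -0.06).

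Of 14939 genes tested, 1050 (7.03%) were higher and 2823 (18.9%) lower in liver than in bone marrow. Together 3873 genes (25.9%) passed the test, and the libraries did not overlap between groups for 6789 genes (45.4%), liver being above for 13.1% and below for 32.3%. On the TPM scale, these shares are the background for every list and every separated gene below. The median log2 difference over all genes was -0.219. By at least 3 on the log2 scale, 20 genes were higher and 362 lower. This split depended on the scale. Scaling to T cell genes gave 490 higher and 5806 lower of the 14939 genes, with a median of -0.554. Quantile normalization gave 1787 higher and 1690 lower genes, with a median of 0.057. A list value given below under either scaling is to be read beside these counts and medians. Of the 362 genes lower by at least 3, 221 had a mean under 1 TPM in the lymph node libraries, the group with the lowest summed level of granulocyte genes, and 8 had a lymph node mean of at least 0.5 times that of bone marrow. Of all 2823 lower genes, 711 had a lymph node mean under 1 TPM and 1551 one of at least 0.5 times that of bone marrow. Of the 1050 genes higher in liver, 487 had their highest mean of the 6 sites in liver, 336 had it in lung, and 234 had their lowest mean in bone marrow. Selection for liver above bone marrow favours liver as highest and bone marrow as lowest site. Shares over all tested genes are not given, so these counts only describe the genes that passed.

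**Figure D1:**
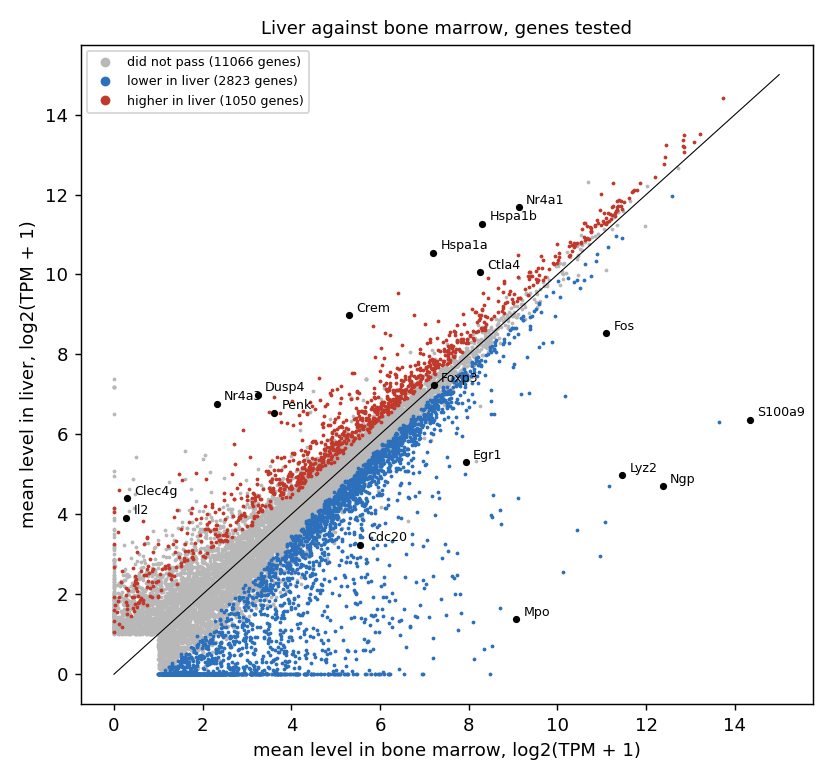
Mean level of each tested gene in bone marrow (x axis) and liver (y axis), both as log2(TPM + 1), with 1 point per gene, colours for the test result and a line of equal levels. Genes such as S100a9, Ngp and Mpo lie far below the line, Nr4a3, Crem and Hspa1a far above it, and Foxp3 on it.

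The largest differences belonged to genes of granulocytes, all lower in liver. S100a9, a subunit of the calprotectin complex of neutrophils, was measured at 20689, 20691 and 20725 TPM in bone marrow and at 53.0, 56.6 and 136 TPM in liver (log2 difference -8.11, SE 0.35, adjusted p 4.5e-05). Ngp, a neutrophil granule protein, had 5348, 5271 and 5272 TPM in bone marrow and 29.0, 21.9 and 24.3 TPM in liver (-7.68, SE 0.10). Lack of overlap between the groups was a condition for naming both genes. Mpo (myeloperoxidase), Elane (neutrophil elastase), Camp (cathelicidin), Cd177, Ifitm6, Chil3, S100a8, Lcn2 (lipocalin 2) and Hp (haptoglobin) were lower by -7.32 to -8.02. Wfdc21 was listed at 0 in each liver library and had 367, 330 and 370 TPM in bone marrow. Genes with at least 10 TPM in lymph node that fell most in liver were again mostly of myeloid cells: Lyz2 (lysozyme), Ly6c2, Ncf1 and Cybb (subunits of the phagocyte oxidase), Csf2ra, Aldh2, Msrb1 and Ly6d, with log2 differences from -6.56 for Lyz2 to -3.10 for Msrb1, next to S100a9 and S100a8. Smim4 (-3.20, SE 0.89, adjusted p 0.044) was also among them and did not pass when liver replicate 1 or 3 or any bone marrow library was left out (0.0738 to 0.159).

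Marker lists gave the same picture in sums. All 15 granulocyte markers and all 12 monocyte and macrophage markers were lower in liver. The granulocyte sum was 218, 186 and 355 TPM in liver and 47470, 47370 and 47740 TPM in bone marrow. Lymph node held 48.29 TPM of it and peripheral blood 17750 TPM. The monocyte sum was 200 to 250.8 TPM in liver and 4061 to 4203 TPM in bone marrow. All 10 B cell markers (77.72 ± 21.5 against 609.2 ± 29.9 TPM, SD, n = 3) and all 8 eosinophil and basophil markers (3.18 ± 3.63 against 354.7 ± 8.0 TPM) were lower as well. Dendritic cell markers, MHC class II genes among them, summed to 512.9 ± 25.4 TPM in liver and 1417 ± 6.76 TPM in bone marrow, with 7 of 10 lower. Plasma cell genes summed to 458.4 ± 17.5 TPM in liver and 2403 ± 32.3 TPM in bone marrow, with 4 of 7 tested lower (the joining chain gene Jchain and the antibody genes Igkc, Ighm and Igha). Platelet genes summed to 11.01 ± 2.54 and 77.21 ± 6.06 TPM, with 4 of 6 tested lower (Pf4, Itga2b, Ppbp and Gp1bb). Of these, Ppbp did not pass when any bone marrow library was left out, and Gp1bb when any of the 6 libraries was (adjusted p 0.0702 to 0.0847 and 0.0597 to 0.134). Stem and progenitor genes summed to 28.85 ± 8.83 and 116.7 ± 4.36 TPM, with 6 of 7 tested lower. The 3 stromal genes tested, Col1a1 and Col1a2 of collagen and Cxcl12, were lower, and the sum of the list was 0.7133 ± 0.655 against 41.47 ± 2.23 TPM. In each of these 9 lists the exact two-sided permutation test over libraries gave p = 0.1, the smallest that 3 against 3 allows. In bulk libraries fewer cells of a type and less RNA per cell cannot be told apart.

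Erythroid and endothelial sums were higher in liver. Erythroid genes summed to 11470 ± 519 TPM in liver and 6507 ± 95.5 TPM in bone marrow, and the list split by stage. The 4 of 9 tested that were higher were the haemoglobin genes Hbb-bs, Hba-a2, Hbb-bt and Hba-a1, which persist in mature red cells, and the 4 lower included the erythroblast genes Slc4a1 (-5.02), Klf1 (-4.86) and Epor (-2.85). Hba-a1 (0.26) and Hbb-bt (0.35) fell below 0 with scaling to T cell genes (-0.11 and -0.03) and, as copies of near-identical genes, are uncertain. They did not pass when any bone marrow library was left out (adjusted p 0.0928 to 0.11 and 0.0651 to 0.0864), nor did Epor without bone marrow replicate 2 or 3 (0.0523 to 0.0529). Hbb-bs was measured at 5183, 4922 and 4822 TPM in liver and 2338, 2557 and 2430 TPM in bone marrow. Endothelial genes summed to 154.1 ± 15.3 and 79.11 ± 1.34 TPM. The 3 endothelial markers that passed as higher were Clec4g and Stab2, both found on liver sinusoidal endothelium, and Kdr. Stab2 did not pass when liver replicate 1 or 2 or any bone marrow library was left out (adjusted p 0.0851 to 0.151). Clec4g was measured at 15.2, 20.6 and 24.5 TPM in liver and at 0.38, 0 and 0.31 TPM in bone marrow. Alb (albumin) had 4.38, 5.1 and 6.69 TPM in liver and Clec4f, a Kupffer cell lectin, 8.08, 11.08 and 6.33 TPM, while both were listed at 0 in each bone marrow library. Of 7 hepatocyte genes tested, Alb was higher, Trf (transferrin) lower (-0.69) and 5 did not pass, and the list of 13 summed to 37.49 ± 1.41 TPM in liver and 27.57 ± 3.5 TPM in bone marrow. Trf did not pass when liver replicate 2 or 3 or any bone marrow library was left out (adjusted p 0.0706 to 0.157). The median log2 difference of the 7 was 1.49. Of the 13 hepatocyte genes, 7 reached a mean of 1 TPM in liver and 1 in bone marrow. In liver 4 of them, and in bone marrow 9, were listed at 0 in each library. Of 5 Kupffer cell genes tested, 2 were higher, 0 lower and 3 did not pass. Ttr, Fabp1, Cyp3a11 and Marco, of these 2 lists, were listed at 0 in all 6 libraries. The sums of the Kupffer cell list (30.93 ± 12.4 against 27.97 ± 1.61 TPM) and of the CD8 T and natural killer list (86.83 ± 23.2 against 89.87 ± 2.8 TPM) overlapped between groups. The sum of 9 unconventional T cell genes overlapped too (12.13 ± 4.3 against 8.6 ± 1.05 TPM). The sum of 20 T cell genes was 7747 ± 188 TPM in liver and 6466 ± 45.5 TPM in bone marrow, 13 being higher and 1, Ptprcap, lower (-0.63). Ptprcap did not pass when any bone marrow library was left out (adjusted p 0.114 to 0.126). The part of these other cells' RNA in the differences below was not tested.

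**Figure D2:**
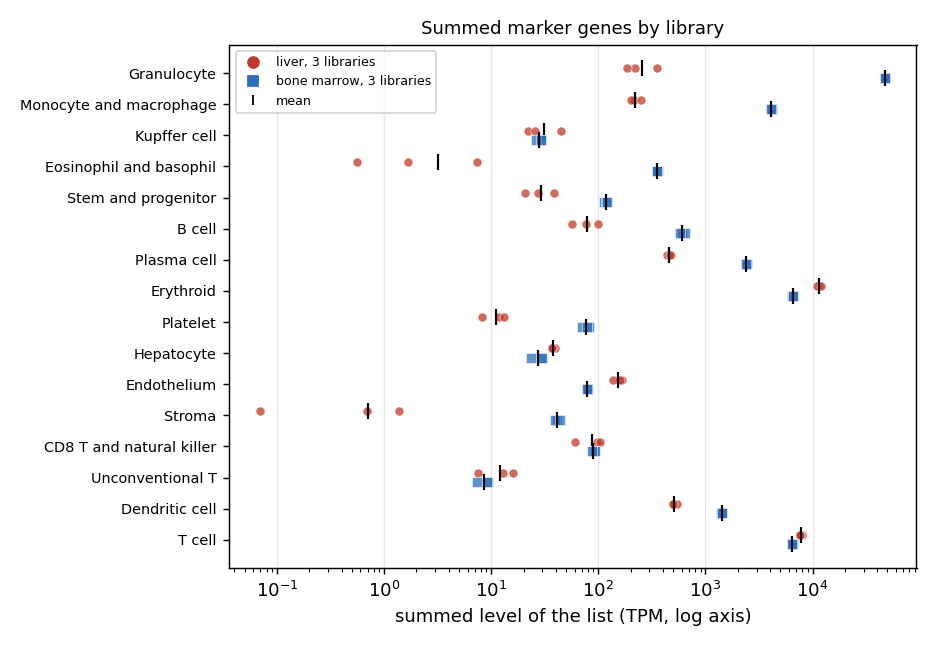
Summed TPM (log x axis) of each marker list in the 3 liver (red circles) and 3 bone marrow (blue squares) libraries, with black ticks at group means. Granulocyte sums of 186 to 355 TPM in liver face sums of 47370 to 47740 TPM in bone marrow, whereas the T cell sums lie close together.

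Immediate early and activation genes moved in both directions. The list holds 31 genes, which cells induce within minutes to hours of stimulation. Of the 31, 15 were higher, 8 lower and 8 did not pass (median log2 difference 0.27, against -0.219 over all genes, and -0.10 with libraries scaled to T cell genes, where 12 were higher and 14 lower). The list therefore split rather than moved as a whole.

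The NR4A nuclear receptors, which act downstream of the T cell receptor and maintain Foxp3 expression, all 3 stood higher in liver. Nr4a1 was measured at 3227, 3198 and 3444 TPM in liver and at 570, 558 and 543 TPM in bone marrow (log2 difference 2.56, SE 0.04, adjusted p 2.7e-06). Nr4a3 had 105, 116 and 102.5 TPM in liver and 4.38, 3.24 and 4.4 TPM in bone marrow (4.45, SE 0.15, adjusted p 2.3e-05). Nr4a2 had 73.4, 61.9 and 70.5 TPM against 6.03, 5.95 and 7.45 TPM (3.22, SE 0.15, adjusted p 5.1e-05). No liver library of these genes came near a bone marrow library, and lack of overlap was a condition for naming them. Crem, which encodes a transcription factor of the cyclic AMP response, had 476, 529 and 504 TPM in liver and 42.6, 34.3 and 37.6 TPM in bone marrow (3.69, SE 0.10, adjusted p 1.3e-05). Gadd45b (2.25), Dusp5 (2.13), Fosl2 (2.10), Ppp1r15a, Rgs1 and Junb (0.67) were higher too. The mean of Nr4a1 was higher in liver (3290 TPM) than in lung (785.5 TPM), blood (626.8 TPM), lymph node (236.6 TPM) or spleen (214.9 TPM). Crem and Nr4a3 had their highest means in lung (1337 and 142.4 TPM). The Nr4a2 mean was 68.62 TPM in liver and 50.98 TPM in lung.

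Other members went the opposite way. Fos, a subunit of the AP-1 transcription factor, was measured at 429, 321 and 356 TPM in liver and at 2184, 2200 and 2210 TPM in bone marrow (log2 difference -2.58, SE 0.10, adjusted p 3.8e-05). Fosb had 85.2, 99.4 and 87.9 TPM in liver and 367, 363 and 356 TPM in bone marrow (-1.99, SE 0.08). Egr1, a zinc finger factor of the same early wave, had 33.9, 44.9 and 36.3 TPM in liver and 247, 240 and 244 TPM in bone marrow (-2.65, SE 0.12). Again the groups did not overlap. Ier2 (-0.53), Dusp2 and the feedback regulators Zfp36 (-0.32) and Dusp1 (-0.31) were lower by less, and Jun (0.03, SE 0.06, adjusted p 0.75) did not pass. The granulocyte and monocyte sums above are also higher in bone marrow, and their part in these values was not tested.

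**Figure D3:**
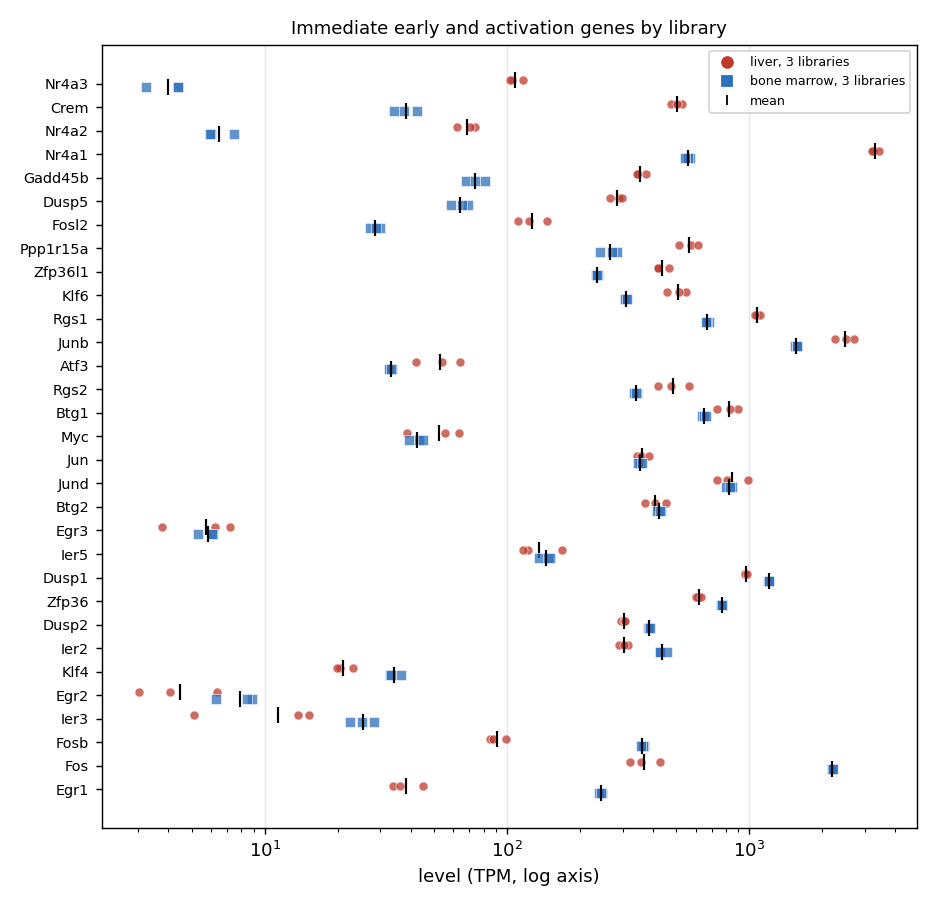
Level (TPM, log x axis) of 31 immediate early and activation genes in 3 liver (red circles) and 3 bone marrow (blue squares) libraries, ordered by log2 difference, with black ticks at group means. Nr4a3, Crem, Nr4a2 and Nr4a1 at the top are separated with liver higher, and Fosb, Fos and Egr1 at the bottom with bone marrow higher.

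As members of this list parted, the stretches before the start sites of 3 of them are shown, from RefSeq (GRCm38.p6), 5′ to 3′ along the gene. Capitals mark TGACG or its reverse complement CGTCA, the core of the cyclic AMP response element, which CREM and CREB proteins bind. The stretches are chr15:101266596-101266845 (plus strand) for Nr4a1, chr4:48045055-48045152 (plus strand) for Nr4a3 and chr12:85473690-85473889 (plus strand) for Fos.
Nr4a1: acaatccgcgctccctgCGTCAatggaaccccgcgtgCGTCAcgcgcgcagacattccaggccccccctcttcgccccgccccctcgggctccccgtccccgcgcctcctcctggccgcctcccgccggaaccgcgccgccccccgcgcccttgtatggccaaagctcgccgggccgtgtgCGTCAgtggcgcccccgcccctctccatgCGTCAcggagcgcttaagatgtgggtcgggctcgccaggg
Nr4a3: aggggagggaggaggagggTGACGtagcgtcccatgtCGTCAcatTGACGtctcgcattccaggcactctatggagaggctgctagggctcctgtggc
Fos: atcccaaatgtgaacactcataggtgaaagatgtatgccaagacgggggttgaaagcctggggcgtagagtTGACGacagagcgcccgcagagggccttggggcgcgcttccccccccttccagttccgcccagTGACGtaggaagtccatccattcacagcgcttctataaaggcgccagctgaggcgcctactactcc
The Nr4a1 stretch holds 4 matches, that of Nr4a3 3 and that of Fos 2. The stretches shown differ in length, that of Nr4a1 being the longest and that of Nr4a3 the shortest, so these numbers do not rank the genes. The Nr4a1 matches at positions -233 and -213 from the start site lie further out than the Fos stretch reaches. On either strand, 5347 of 27025 genes (19.8%) have a match within 250 bases before a start site. It was found for 9 of 13 list members higher in liver that have a RefSeq promoter (69.2%) and for 4 of 6 lower in liver (66.7%). The motif thus occurred in genes of both directions. Of the heat shock and chaperone genes described below, 10 of 18 with a RefSeq promoter held it too (55.6%). Among those higher in liver it was 5 of 11 (45.5%). A match is a description of letters only.

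Other signal regulators were among the genes of largest difference. Dusp4, a MAP kinase phosphatase, was measured at 121, 119 and 140 TPM in liver and at 8.85, 8.27 and 8.25 TPM in bone marrow (log2 difference 3.75, SE 0.12, adjusted p 1.8e-05). Dusp10, of the same family, had 127, 113 and 124 TPM against 10.43, 11.47 and 11.97 TPM (3.32, SE 0.11). Ifrd1, an interferon-related regulator, had 736, 753 and 740 TPM against 86.6, 78.9 and 86.1 TPM (3.13, SE 0.06). Lack of overlap between the groups was a condition for naming these 3 genes. In lung the means of Dusp4, Dusp10 and Ifrd1 were 118.1, 324.6 and 687.1 TPM, beside 126.6, 121.4 and 742.9 TPM in liver. Vps37b (2.86), a subunit of the ESCRT-I sorting complex, Rgs16 (2.78), a GTPase activator of G protein signalling, and Bhlhe40 (2.41), a transcription factor of activated T cells and of the circadian clock, followed. Their lung means were at 1164, 39.34 and 403.5 TPM, beside 415.9, 169.2 and 367.7 TPM in liver.

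Chaperone genes were higher in liver or did not pass. Of 22 heat shock and chaperone genes, whose products fold or refold proteins and many of which respond to heat shock factor, 21 were tested, and Cryab stayed under 1 TPM in both groups. The test gave 14 higher, 0 lower and 7 that did not pass (limma, median log2 difference 0.67 against -0.219 over all genes). With scaling to T cell genes the median was 0.30, with 8 higher and 3 lower. Hspa1b, an inducible HSP70 gene, was measured at 2223, 2445 and 2743 TPM in liver and at 312, 315 and 318 TPM in bone marrow (2.96, SE 0.08, adjusted p 1.3e-05). Its neighbour and near-identical copy Hspa1a had 1397, 1449 and 1640 TPM in liver and 141, 153 and 146 TPM in bone marrow (3.34, SE 0.07, adjusted p 8.9e-06). As the copies can share reads, how the level divides between them is uncertain, but both genes were higher in liver. Hsph1, an HSP110 nucleotide exchange factor, had 532, 505 and 488 TPM against 107, 108 and 108 TPM (2.22, SE 0.06). The HSP40 partners Dnajb1 (1.64), Dnajb4 (1.32) and Dnaja1 (1.21), the inducible HSP90 gene Hsp90aa1 (1.35) and the constitutive HSP70 gene Hspa8 (0.65) were higher as well. The HSP90 co-chaperones Stip1 (-0.27, SE 0.10, adjusted p 0.11) and Fkbp4 (-0.24, SE 0.11, adjusted p 0.15) did not pass.

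The chaperone sum was 12750 to 13400 TPM in liver and 5824 to 6028 TPM in bone marrow. Elsewhere the group means of this sum were 5298 TPM in spleen, 5649 TPM in lymph node, 5647 TPM in lung and 3954 TPM in blood. Both Hspa1a and Hspa1b were also higher in bone marrow (146.4 and 314.7 TPM) than the mean of lymph node (2.677 and 10.83 TPM). How cells were released from each organ is not given in the sources used here, and its part in the chaperone values was not tested.

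**Figure D4:**
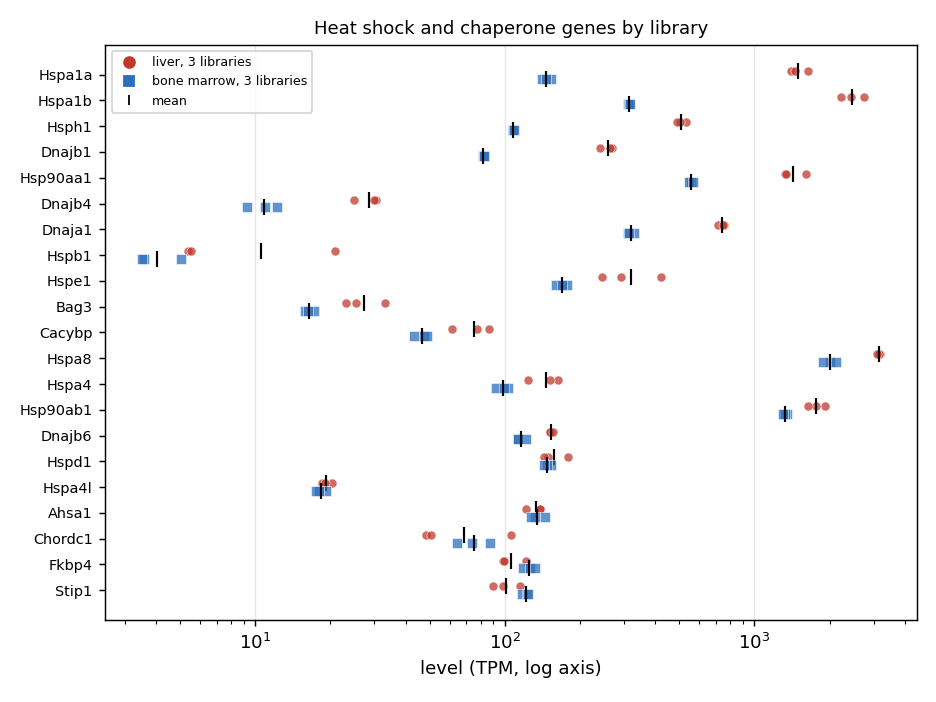
Level (TPM, log x axis) of 21 tested heat shock and chaperone genes in 3 liver (red circles) and 3 bone marrow (blue squares) libraries, ordered by log2 difference, with black ticks at group means. Hspa1a, Hspa1b and Hsph1 are separated most, and Stip1 and Fkbp4 at the bottom lie close together.

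The stretch before Hspa1a is shown for the heat shock element that it carries, spelled GAANNTTC or TTCNNGAA, each its own reverse complement, with the match in capitals (RefSeq, GRCm38.p6, chr17:34972157-34972356, minus strand, 5′ to 3′ along the gene).
Hspa1a: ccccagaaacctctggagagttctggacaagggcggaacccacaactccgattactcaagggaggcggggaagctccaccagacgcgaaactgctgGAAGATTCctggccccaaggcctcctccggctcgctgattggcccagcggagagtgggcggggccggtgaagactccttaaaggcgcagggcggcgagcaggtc
The match starts at position -104 from the start site. The same stretch of Hspa1b is identical at 199 of 200 bases and holds the match too. A match lay within 250 bases before a start site in 3932 of 27025 genes (14.5%). Of the list's members with a RefSeq promoter it was found in 10 of 18 (55.6%), and in 7 of 11 of those higher in liver (63.6%).

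Treg identity genes more often passed as higher than as lower in liver on the TPM scale. Of 18 Treg core genes, 9 were higher, 1 lower and 8 did not pass, with a median log2 difference of 0.37. The counts depended on the scale: scaling to T cell genes gave a median of -0.01, with 6 higher and 5 lower. Over all genes that scaling gave a median of -0.554. Ctla4 was measured at 987, 1125 and 1082 TPM in liver and at 310, 297 and 301 TPM in bone marrow (1.81, SE 0.06, adjusted p 2.3e-05). Lrrc32, which encodes GARP, the receptor that presents latent TGF-beta on Treg cells, had 88.9, 91.1 and 86.1 TPM against 17.9, 16.4 and 17.2 TPM (2.30, SE 0.10, adjusted p 4e-05). Both genes separated the groups without overlap. The inhibitory receptor gene Tigit (1.19, SE 0.09), the costimulatory receptor gene Tnfrsf4 (OX40, 0.89, SE 0.06) and Nt5e (CD73, 0.69, SE 0.08) were higher by less. Il2ra, the high-affinity interleukin-2 receptor chain, had 68.0, 95.9 and 89.0 TPM in liver and 57.9, 52.8 and 60.7 TPM in bone marrow (0.54, SE 0.15, adjusted p 0.042), and did not pass when liver replicate 2 or 3 or any bone marrow library was left out (0.08 to 0.152). Nrp1 (0.08, SE 0.08, adjusted p 0.5) and Itgae (-0.16, SE 0.11, adjusted p 0.31) did not pass. The 1 gene lower was Entpd1 (CD39), which together with CD73 turns extracellular ATP into adenosine. It had 13.2, 17.8 and 16.7 TPM in liver and 43.0, 38.5 and 37.0 TPM in bone marrow (-1.27, SE 0.15, adjusted p 0.0023).

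Genes of effector and tissue Treg cells were higher in liver for the most part, at 22 of 30, with 0 lower and 8 that did not pass (limma, median log2 difference 0.79, and 0.43 with scaling to T cell genes, where 15 were higher and 3 lower). Areg, a tissue repair factor of the epidermal growth factor family, was measured at 86.8, 103 and 85.2 TPM in liver and at 10.7, 16.1 and 10.1 TPM in bone marrow (2.82, SE 0.20, adjusted p 0.00028). Penk, the precursor of enkephalin peptides, had 96.2, 84.9 and 94.0 TPM against 10.9, 10.6 and 12.2 TPM (2.92, SE 0.12, adjusted p 3.4e-05). Ccr8 had 85.4, 79.8 and 109 TPM against 19.4, 19.6 and 19.6 TPM (2.16, SE 0.14, adjusted p 0.00021). For all 3 genes the lowest liver library was above the highest of bone marrow, which for Penk was a condition of naming it. The mean of Penk was 91.71 TPM in liver, 103.5 TPM in spleen, 50.76 TPM in lymph node and 23.2 TPM in lung. Icos (1.73) and Pdcd1 (PD-1, 2.10), both receptors of activated T cells, the nuclear receptor Rora (1.72), Nfil3 (1.56), Il10 (1.33), the protease gene Gzmb (1.30), Id2 (0.95) and Batf (0.71) were higher too. Pparg, a regulator of fat tissue Treg cells, was at 8.94, 8.23 and 10.2 TPM in liver and at 3.08, 2.77 and 2.82 TPM in bone marrow (1.38, SE 0.21, adjusted p 0.005). Klrg1 (0.07, SE 0.10, adjusted p 0.63), Lag3 (0.52, adjusted p 0.12) and Ebi3, an interleukin-35 subunit (-0.57, SE 0.27, adjusted p 0.18), did not pass. The sum over the list was 3308 ± 87.3 TPM in liver and 1925 ± 18.5 TPM in bone marrow, beside means of 4223 TPM in lung, 1742 TPM in lymph node, 1470 TPM in spleen and 1348 TPM in blood.

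Inhibitory and costimulatory receptors overlap those lists, and 12 of 19 were higher in liver, 3 lower and 4 did not pass (median log2 difference 0.68, or 0.31 with scaling to T cell genes). Cd28, the main costimulatory receptor of T cells, was measured at 188, 250 and 203 TPM in liver and at 65.7, 65.6 and 64.0 TPM in bone marrow (1.69, SE 0.12, adjusted p 0.00026). Slamf6 was higher by 1.14. The lower members were Vsir, which encodes the checkpoint protein VISTA and is abundant in myeloid cells (83.5, 112 and 103 TPM in liver against 198, 197 and 194 TPM in bone marrow, -0.99, SE 0.12), Cd101 (-1.05) and Cd244a (-1.85). Cd244a reached at most 0.85 TPM in liver and did not pass without bone marrow replicate 3 (adjusted p 0.052).

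Cytokine and chemokine genes showed opposite directions within 1 list. Of 20, 17 were tested, with 9 higher in liver, 4 lower and 4 that did not pass (median log2 difference 0.96, and 0.84 with scaling to T cell genes). Il2, a cytokine that Treg cells consume and that conventional T cells make, was measured at 19.2, 7.08 and 15.9 TPM in liver and at 0.13, 0.37 and 0.13 TPM in bone marrow (3.54, SE 0.40, adjusted p 0.0018). Cxcl10, an interferon-induced ligand of CXCR3, had 121, 112 and 106 TPM against 14.5, 14.7 and 16.5 TPM (2.81, SE 0.11, adjusted p 3.2e-05). Ifng, the type 1 helper cytokine, had 81.7, 81.8 and 68.0 TPM against 27.5, 24.1 and 24.1 TPM (1.57, SE 0.12), and Tnf was higher by 1.36. These genes had no overlap between groups, which for Il2 was a condition of naming it. Il2 also reached a mean of 13.92 TPM in spleen. Lower in liver were the chemokine genes Ccl3 (6.95, 3.87 and 1.36 TPM against 58.4, 57.2 and 47.8 TPM, -3.62, SE 0.44) and Ccl4 (-1.10), lymphotoxin beta (Ltb, 502, 472 and 516 TPM against 961, 1013 and 989 TPM, -0.99, SE 0.05) and Tgfb1 (-0.55). Tgfb1 did not pass without bone marrow replicate 1 or 2 (adjusted p 0.0628 to 0.0663).

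Homing and adhesion receptors were mixed, with 12 of 28 trafficking receptors higher, 4 lower, 12 that did not pass and a median log2 difference of 0.01 (-0.31 with scaling to T cell genes, 8 higher and 11 lower). Ccr7, the receptor for entry into lymph nodes, was measured at 189, 167 and 203 TPM in liver and at 41.3, 44.8 and 39.7 TPM in bone marrow (2.12, SE 0.10, adjusted p 7.1e-05). Cxcr6, whose ligand is displayed on liver sinusoidal endothelium, had 110, 129 and 107 TPM against 58.3, 52.8 and 53.9 TPM (1.05, SE 0.10, adjusted p 0.001). Receptors of lymphoid and of tissue homing thus stood higher in the same libraries. The integrin genes Itgav (1.28) and Itga4 (0.71), Gpr183 (0.77), Gpr15 (0.74) and Ccr4 (0.69) were higher as well. Cxcr4, whose ligand CXCL12 retains cells in bone marrow, had 603, 597 and 532 TPM in liver and 640, 606 and 613 TPM in bone marrow, and did not pass (-0.10, SE 0.06, adjusted p 0.28). Neither did Cxcr3 (-0.21, SE 0.07, adjusted p 0.094). Lower in liver were the monocyte receptor gene Cx3cr1 (-2.28), Ccr10 (-1.0), the leukocyte integrin gene Itgb2 (-0.46) and the selectin ligand gene Selplg (-0.38). Ccr10 did not pass when any bone marrow library was left out (adjusted p 0.0549 to 0.0766).

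Genes of resting and circulating T cells, 20 in all, gave 9 higher, 1 lower and 10 that did not pass (median log2 difference 0.31, which became -0.06 with scaling to T cell genes, where 5 were higher and 5 lower). Satb1, a chromatin organiser of T cells, was measured at 99.1, 93.3 and 93.2 TPM in liver and at 44.6, 43.0 and 45.6 TPM in bone marrow (1.08, SE 0.08, adjusted p 0.00036). Tcf7, the gene of TCF1, was higher by 0.62 and the survival gene Bcl2 by 0.94. Klf2, a transcription factor that keeps T cells in circulation, had 595, 611 and 724 TPM in liver and 771, 766 and 791 TPM in bone marrow and did not pass (-0.28, SE 0.08, adjusted p 0.05 after rounding). The member lower in liver was the interleukin-7 receptor gene Il7r (-0.26, SE 0.06, adjusted p 0.026), which did not pass when any bone marrow library was left out (0.0797 to 0.107). Genes of the resting and of the effector list were thus both higher in these bulk libraries, which do not show whether the same cells carry both.

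Receptor signalling genes showed modest differences. Of 27 T cell receptor signalling genes, 13 were higher in liver, 3 lower and 11 did not pass (median log2 difference 0.26, and -0.12 with scaling to T cell genes, where 3 were higher and 9 lower). Themis, an adaptor of receptor signalling, had 41.2, 43.7 and 52.2 TPM in liver and 16.4, 16.3 and 14.7 TPM in bone marrow (1.47, SE 0.14). The phosphatase gene Ptpn22 (0.78) was higher by less. Ptpn6, the gene of the phosphatase SHP-1 of all blood cells, had 86.0, 90.6 and 80.8 TPM in liver and 213, 204 and 206 TPM in bone marrow (-1.27, SE 0.07, adjusted p 0.00013). Vav1 (-0.81) was lower too.

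Interleukin-2 receptor and STAT5 genes gave 9 of 18 higher, 1 (Il7r) lower and 8 that did not pass, with a median log2 difference of 0.37 (0 with scaling to T cell genes, where 4 were higher and 5 lower). Stat5a, the signal transducer of the receptor, was measured at 91.3, 77.2 and 73.2 TPM in liver and at 37.0, 35.4 and 36.9 TPM in bone marrow (1.12, SE 0.11, adjusted p 0.0011). The STAT5 target Pim1 was higher by 0.81 and the receptor chain gene Il2rb by 0.36, the latter at -0.01 with scaling to T cell genes. Of 27 NF-kappaB and TNF receptor genes, 12 were higher, 5 lower and 10 did not pass (median 0.30, and -0.06 with scaling to T cell genes, 9 higher and 9 lower). Rel, the NF-kappaB subunit needed for Treg development, had 71.1, 88.4 and 71.8 TPM in liver and 16.9, 17.1 and 18.4 TPM in bone marrow (2.08, SE 0.13, adjusted p 0.00016). The inhibitors Tnfaip3 (A20, 1.47) and Nfkbia (0.98), Nfkbid (1.60) and Nfkbiz (1.14) of atypical nuclear IkB proteins, and the ligand gene Tnfsf8 (1.35), were higher too. Tnfrsf9 (4-1BB, 1.24) did not pass without bone marrow replicate 1 or 2 (adjusted p 0.0523 to 0.0524). Lower were Tnfrsf1a (17.9, 15.8 and 12.9 TPM against 58.4, 57.3 and 58.7 TPM, -1.85, SE 0.14), Ltb, Tnfsf14 (-1.17), Traf2 (-0.51) and Nfkb2 (-0.35). Tnfsf14 did not pass when liver replicate 3 or any bone marrow library was left out (0.0537 to 0.101), Traf2 without bone marrow replicate 1 or 3 (0.0681 to 0.0722) and Nfkb2 without any of the bone marrow libraries in turn (0.0717 to 0.116).

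Interferon response genes were higher at 10 of 25 tested of 26, with 1 lower and 14 that did not pass (median log2 difference 0.32, and -0.03 with scaling to T cell genes, where 4 were higher and 2 lower). Isg15, a ubiquitin-like protein induced by interferon, was measured at 159, 137 and 147 TPM in liver and at 34.1, 31.9 and 36.0 TPM in bone marrow (2.09, SE 0.10, adjusted p 5.5e-05). Ifit1 (1.64), of the antiviral RNA-binding IFIT family, and the GTPase gene Iigp1 (1.33) were higher as well. Bst2 (tetherin) was lower (-0.39, SE 0.11, adjusted p 0.048) and did not pass when liver replicate 1 or any bone marrow library was left out (0.0673 to 0.167). The list summed to 2069 ± 102 TPM in liver and 1544 ± 25.3 TPM in bone marrow, beside means of 2156 TPM in spleen, 2061 TPM in lymph node, 1826 TPM in blood and 1411 TPM in lung.

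Cell cycle genes were lower in liver at 27 of 29, with 0 higher (limma, median log2 difference -1.34). Its direction held with scaling to T cell genes (-1.70, 28 lower) and with quantile normalization (-1.16, 25 lower). Mki67, a proliferation marker, was measured at 33.7, 31.5 and 32.8 TPM in liver and at 84.0, 81.2 and 77.7 TPM in bone marrow (-1.28, SE 0.09, adjusted p 0.00026). Birc5 (survivin), needed in mitosis, had 14.8, 18.7 and 16.8 TPM against 71.1, 64.9 and 69.4 TPM (-1.97, SE 0.12, adjusted p 0.00018). Cdc20, an activator of the anaphase-promoting complex, had 7.69, 13.1 and 4.51 TPM against 43.4, 45.4 and 48.6 TPM (-2.41, SE 0.34, adjusted p 0.0041). These 3 genes did not overlap between groups. Ccna2 (cyclin A2) was lower by -1.78. The 2 that did not pass were Bub1 (-1.20, SE 0.39, adjusted p 0.068) and Mcm2 (-0.64, SE 0.32, adjusted p 0.2). The list summed to 984.7 ± 50.7 TPM in liver and 2101 ± 18.7 TPM in bone marrow. Other sites lay closer to liver, with means of 941.6 TPM in lymph node, 856.7 TPM in lung, 753.4 TPM in spleen and 391.3 TPM in blood. Genes of dividing bone marrow precursors moved with this list: the stem and progenitor sum was at most 38.3 TPM in liver and at least 111.8 TPM in bone marrow, and the pre-B cell gene Vpreb1 was listed at 0 in each liver library against 15.6 to 23.0 TPM. Their part in the cell cycle values was not tested.

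Metabolic lists moved less. Of 24 cholesterol and fatty acid synthesis genes, 6 were higher in liver, 1 lower and 17 did not pass (median log2 difference 0, and -0.36 with scaling to T cell genes, where 5 were higher and 6 lower). Insig1, the sterol sensor that retains SREBP factors, was measured at 73.8, 103 and 95.8 TPM in liver and at 22.4, 17.5 and 18.8 TPM in bone marrow (2.15, SE 0.17, adjusted p 0.00041). Cyp51 (1.66), an enzyme of sterol synthesis, was higher too, and the desaturase gene Scd1 was lower (-1.84). Of 21 glycolysis and hypoxia genes, 7 were lower, 2 higher and 12 did not pass (median -0.06, and 0.03 with median ratio scaling). Scaling to T cell genes gave 1 higher and 12 lower (-0.43). Among the lower were the lactate transporter gene Slc16a3 (7.25, 11.8 and 10.4 TPM against 49.0, 44.6 and 44.1 TPM, -2.14, SE 0.19), the glucose transporter gene Slc2a3 (-1.11), Pgam1 (-0.57) and Pkm (-0.45). The 2 higher were Pfkp (0.79) and Hif1a (0.61), and Hif1a did not pass without bone marrow replicate 1 or 3 (adjusted p 0.0531 to 0.0534).

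Stress and hormone response lists had genes in both directions. Of 18 unfolded protein and integrated stress genes, 2 were higher, 5 lower and 11 did not pass (median log2 difference -0.33). Scaling to T cell genes gave 1 higher and 10 lower (-0.68), and quantile normalization 2 and 2 (-0.10). Ddit4, an inhibitor of mTORC1, was higher (191, 210 and 205 TPM against 84.7, 85.4 and 76.5 TPM, 1.29, SE 0.08), as was the chaperone gene Hspa5 (0.28, or -0.09 with scaling to T cell genes). The asparagine synthetase gene Asns was lower (4.66, 5.09 and 6.02 TPM against 21.7, 20.0 and 22.3 TPM, -1.84, SE 0.17), with Herpud1 (-0.83), Sdf2l1 (-0.81) and Pdia4 (-0.49). Chac1 was listed at 0 in each liver library and at 1.58 to 3.13 TPM in bone marrow. Herpud1 and Sdf2l1 did not pass when any bone marrow library was left out (adjusted p 0.0621 to 0.0664 and 0.0532 to 0.0915), and Hspa5 and Pdia4 when any of these or liver replicate 1 or 3 was (0.0633 to 0.16 and 0.0595 to 0.147).

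Of 12 glucocorticoid response genes, 11 were tested, with 3 higher, 2 lower and 6 that did not pass (median log2 difference -0.04, 0.06 with median ratio scaling, and -0.41 with scaling to T cell genes, where 3 were higher and 4 lower). Cdkn1a (37.8, 41.2 and 39.0 TPM against 10.5, 11.7 and 10.2 TPM, 1.78, SE 0.13), which encodes the cyclin-dependent kinase inhibitor p21, the clock gene Per1 (1.68) and Ddit4 were higher. Fkbp5 (-0.44, adjusted p 0.042) and Il7r were lower, and Fkbp5 did not pass when liver replicate 2 or 3 or any bone marrow library was left out (0.0586 to 0.145). Of 14 adenosine and purinergic genes, 12 were tested, with 2 higher, 3 lower and 7 that did not pass (median -0.10, 0.19 with quantile normalization, and -0.45 with scaling to T cell genes, where 2 were higher and 6 lower). The 2 higher were Nt5e and P2ry10, a lysophospholipid receptor gene (399, 433 and 458 TPM against 130, 128 and 127 TPM, 1.73, SE 0.07). Besides Entpd1, the adenosine deaminase gene Ada (-1.30) and the ATP-gated channel gene P2rx7 (-0.53) were lower, and both missed the threshold when liver replicate 3 or any bone marrow library was left out, Ada also without liver replicate 1 (adjusted p 0.0914 to 0.176 and 0.0575 to 0.117).

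**Figure D5:**
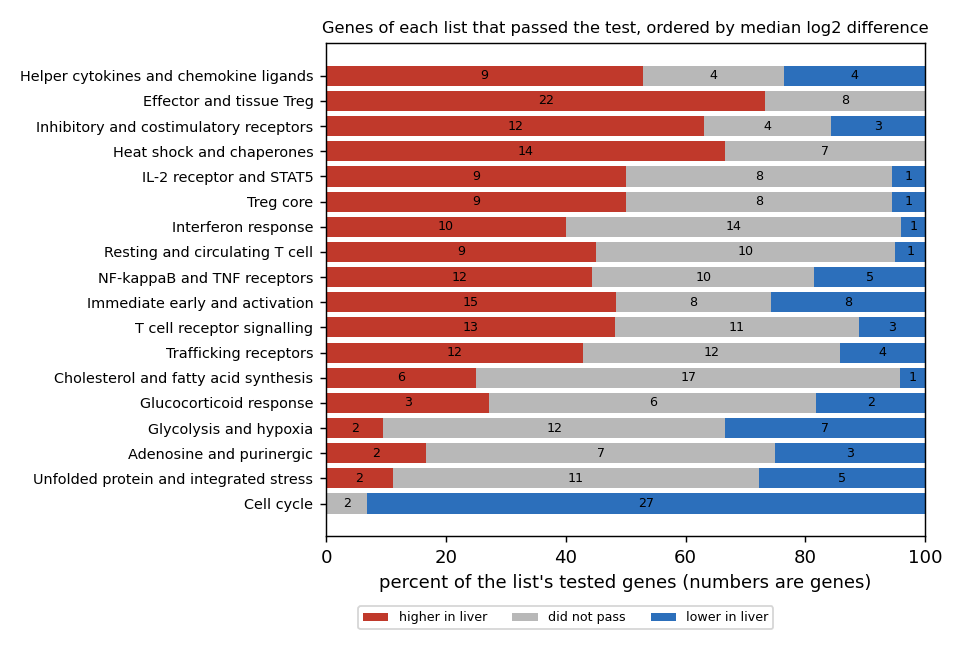
Share of each list's tested genes (x axis, percent) that were higher in liver (red), did not pass (grey) or were lower (blue), with gene numbers in the bars and lists ordered by median log2 difference. Over all genes 7.03% were higher and 18.9% lower. The cell cycle list is almost wholly lower, and the effector and chaperone lists hold no lower gene.

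A few further genes led the liver side. Calca, the precursor of calcitonin and of the neuropeptide CGRP, was measured at 28.6, 30.3 and 35.0 TPM in liver and at 1.51, 1.47 and 2.28 TPM in bone marrow (log2 difference 3.56, SE 0.21, adjusted p 0.00013), and its mean in lung was 93.11 TPM. AW011738 had 63.5, 45.3 and 50.1 TPM against 5.23, 5.48 and 5.82 TPM (3.04, SE 0.17). Asdurf, which is annotated on the same strand within the locus of Asnsd1, was listed at 0 in all libraries outside liver and had 9.86, 18.96 and 21.56 TPM there. As its reads can be split with Asnsd1, that value is uncertain. Gpihbp1, a capillary endothelial anchor of lipoprotein lipase, had 9.52, 2.79 and 19.9 TPM in liver and at most 0.2 TPM in bone marrow (3.15, SE 0.62, adjusted p 0.015), and did not pass when any bone marrow library was left out (0.0621 to 0.0693). With Clec4g it is a gene of endothelium rather than of T cells.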

How the data were processed

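The authors deposited TPM values for 55487 Ensembl gene IDs per library, with STAR, RSEM and the build mm10 named in the submitters' processing notes. Annotation release and counting strand are not given in the sources used here. Libraries came from a directional poly(A) kit, per the labels' protocols. Symbols were matched through GENCODE M21 (55141 IDs). Values were tested as log2(TPM + 1) in R 4.3.3 with limma 3.58.1 (trend and robust eBayes, 6 libraries, no covariate), keeping genes that averaged 1 TPM or more in either group; changes of low genes are understated on this log2(TPM + 1) scale. Relative depth came from steps between low values of 12062 genes with 1 annotated transcript.

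The comparison of these 2 sites and the gene lists were chosen with earlier results of these data known. In each direction the 12 genes of largest difference were named, among genes that passed, reached a mean of 10 TPM in the group where they were higher and did not overlap between groups, and again among those of at least 10 TPM in lymph node. The lack of overlap of genes named in this way is set by the rule and adds no support. Predicted genes, receptor segments, mitochondrial genes, histones and ribosomal protein genes were left out. From each list the members of largest difference and others chosen after their values were seen were named. List sums were compared by an exact permutation test over libraries. Alternatives covered pseudocount, filter, scaling, weights, all 18 libraries, a replicate block and leaving out each library. Some genes that these rules select are not reported here. Tested on simulated data with each group's own spread, limma missed most of the changed genes, and the share of false calls was well above the nominal level.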

Additional observations from a re-analysis of the deposited data

How the results depend on the processing

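The 1050 higher and 2823 lower genes stayed within 1.5 times under both other pseudocounts, both other filters, library weights, median ratio scaling and removal of abundant classes and markers. Fitting all 18 libraries gave 1598 higher. Scaling to T cell genes gave 490 higher and 5806 lower, quantile normalization 1787 and 1690. Without 1 library the counts ran from 512 to 1339 higher and 1330 to 3280 lower, with the fewest calls without a bone marrow library and the most without a liver library. The replicate block gave 678 higher and 1733 lower. Same-numbered libraries deviated with correlations of 0.063, 0.004 and 0.02, so the numbers were not taken as pairs. Of 190 genes examined singly that passed, 152 passed under each of the 17 alternatives that tested them. These genes were chosen for large differences or after their values were seen, so this share does not stand for all calls. Without 1 bone marrow library, 511 to 526 of the 1050 higher and 1310 to 1383 of the 2823 lower calls remained. Among the 190 genes only Il2rb (-0.01), Hbb-bt (-0.03), Cd3e (-0.04), Cd4 (-0.06), Hspa5 (-0.09) and Hba-a1 (-0.11) turned, in each case with scaling to T cell genes. The shallow liver libraries limit genes of few TPM, where a listed 0 can be a failed estimate.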

Other observations

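Gene families outside the lists above were looked at after their values were seen. Of 88 cytosolic ribosomal protein genes, 65 were higher and 1, Rps4l, lower in liver (median log2 difference 0.32). With scaling to T cell genes 6 were higher and 17 lower (-0.06, beside -0.554 over all genes). Other families had counts near the background of 18.9% lower over all genes: 14 of 78 mitochondrial ribosomal protein genes (median -0.45), 20 of 82 nuclear genes of the respiratory chain (-0.26) and 9 of 44 proteasome genes (-0.29). With scaling to T cell genes 35, 57 and 33 were lower, beside 5806 of 14939 over all genes. With quantile normalization 4 mitochondrial ribosomal protein genes were lower and 5 higher. Of 60 replication histone genes, whose mRNAs mostly lack a poly(A) tail, 27 were lower and 0 higher (limma, -1.63). Variable segments of the T cell receptor, 127 in number, gave 9 higher and 8 lower (-0.14, and 0.16 with quantile normalization).

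Dual specificity phosphatases went both ways. Of 16, 5 were higher (Dusp4, Dusp10, Dusp5, Dusp14 and Dusp11) and 3 lower (Dusp1, Dusp2 and Dusp6, the last a phosphatase of cytoplasmic ERK with 18.77 TPM in liver and 47.21 TPM in bone marrow). Dusp11 did not pass when any bone marrow library was left out, nor Dusp14 when one of these or liver replicate 2 was (adjusted p 0.0533 to 0.0628 and 0.0639 to 0.14). Of 8 GIMAP genes, GTPases of lymphocyte survival, 5 were higher (Gimap9, Gimap4, Gimap6, Gimap7 and Gimap8), Gimap9 most (355.6 against 206.5 TPM, log2 difference 0.78). Gimap3 was lower (-0.17) and did not pass when any bone marrow library was left out (adjusted p 0.0546 to 0.103). With scaling to T cell genes 2 of the 8 were higher and 2 lower (median 0.13, beside 0.5 on the TPM scale). Gimap6, Gimap7 and Gimap8 did not pass under that scaling. Of 9 MHC class II genes, 7 were lower and 0 higher (limma, median -1.56).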
